A study of Sus scrofa with 90 samples.

Results

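Lesions of 7 d were set against lesions of 2 d in pig skeletal muscle, with 19 of the 48 muscle samples on file: 10 lesions of 2 d and 9 lesions of 7 d. They were the samples whose description names damage of 2 d or of 7 d, and they were paired by the letter of the pig. Both ages were on file for 9 pigs (C to I, K and L), and pig J had a lesion of 2 d only. Each of 10 piglets had received propylene glycol, a solvent that carries injected drugs, into the Longissimus dorsi, the long muscle of the back. Injections at different times gave every animal lesions of 6 h, 2 d, 7 d and 21 d, at sites spread at random, and a site that was never injected served as control. The sources used here give no genotype, breed, age or sex of the piglets. A single animal thus carried all lesion ages, and RNA came from the whole lesion.

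Injured skeletal muscle passes through a known series of stages. Damaged fibres break down first, and neutrophils and then macrophages enter and clear the debris. Satellite cells, the stem cells of muscle, then divide and fuse into new fibres, while the matrix is laid down and remodelled. In whole tissue, fewer cells of a type and less RNA per cell cannot be told apart.

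Expression was read from radioactively labelled cDNA on nylon arrays, 1 array per sample. The values are logarithms of a base that the sources used here do not give. A difference of 1 log unit is 2-fold if the base is 2 and 2.72-fold if the logarithm is natural. Of 4608 listed features, 1908 were measured in every column and tested, and 206 of those carry a gene symbol, for 121 genes. A gene with several features is given by the one with the highest mean, and a number after a symbol is the feature's number in the deposited table. Each array was compared over features with the average of the rest, and r was at least 0.786 for the arrays of 2 d and 7 d. For the 6 h array of pig F it was 0.240 in place and 0.739 when its values were moved by 384 features, and this array was left out. Both columns of a sample held identical values in 41 of 42 pairs, so they count once. At their highest-mean features CKM, TNNC2 and NDUFA4 were bright at both ages, with means of 2.46, 3.09 and 2.62 at 2 d. Their other features were lower, down to dim ones such as CKM (7246) at -0.27 and TNNC2 (6078) at -0.39. The fibre genes TNNI2 and MYL1 were dim even at their highest-mean features (-0.45 and -0.28 at 2 d). None of the lists of markers for neutrophils, macrophages, lymphocytes, fibroblasts, adipocytes, red cells or nerve had a measured gene.

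The 2 ages differed in 314 of 1908 features, 16.5% of those tested, by limma with the pig as a block and a Benjamini-Hochberg adjusted p below 0.05. Higher at 7 d were 180 features (9.43%), and 134 were lower (7.02%). XIRP2, an actin-binding protein of the fibre's junctions, stood highest among the named genes. JAK1, the kinase of cytokine receptors, and ANPEP, a surface peptidase, also rose. Among those that fell were CKM, the muscle creatine kinase, POMGNT1, a glycosyltransferase of dystroglycan, and CAPNS1, the small calpain subunit. In the quantile-normalised values the rises had a median of 0.49 log units with a range from 0.19 to 2.36, and the falls had a median of -0.41 and reached -0.95. There 18 rises and none of the falls exceeded 1 log unit. In the values as deposited the order of the medians turned, with 0.55 for the rises and -0.73 for the falls, and 8 rises and 4 falls exceeded 1 log unit. The 2 groups did not overlap in 46 features (2.41%), of which 40 were higher and 6 lower at 7 d. The difference had 1 sign in 9 of 9 pigs in 128 of all features (6.71%).

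Of 121 genes 16 were called (13.2%), 8 higher and 8 lower. Of the 206 features with a symbol 21 were called (10.2%), a smaller share than the 16.5% over all features, and the difference between these shares was not tested. The median difference over the genes was -0.04 and over all features -0.02. The split between rises and falls depended on the scaling. With quantile-normalised values 57.3% of the calls were rises, against 40.9% of 127 calls in the values as deposited and 37.3% of 177 calls after centring each array on its median.

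**Figure D1:**
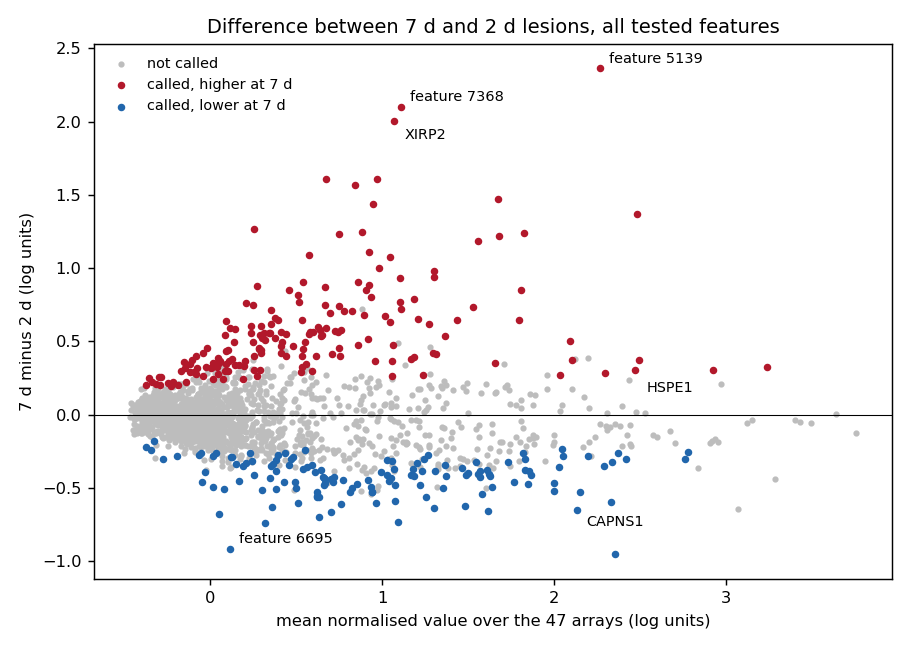
Each point is 1 of 1908 tested features, with its mean normalised value over 47 arrays on the horizontal axis and the difference of 7 d minus 2 d on the vertical axis, both in log units; red points were called higher at 7 d and blue points lower at an adjusted p below 0.05. The 180 rises reach 2.36 (feature 5139), while the 134 falls end at -0.95, and XIRP2 lies at 2.00.

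Among genes of the fibre's scaffold and Z disc, XIRP2 was called and the other 4 measured were not. XIRP2 was low in all lesions of 2 d, with values of -0.11 at the lowest, 0.0054 at the median and 0.65 at the highest. At 7 d its lowest value was 1.61, its median 1.99 and its highest 2.67. Every lesion of 7 d lay above every lesion of 2 d, and the values rose in 9 of 9 pigs. The difference was 2.00 ± 0.115 log units (SE; adjusted p = 8.69e-17 in limma, n = 9 and 10), which is 4.01-fold in base 2 and 7.41-fold on the natural scale. In the deposited values the difference of XIRP2 was smaller, at 1.58 (adjusted p = 1.04e-08 in limma). DES (desmin, the intermediate filament of muscle and a marker of regenerating fibres) had a difference of -0.31 (adjusted p = 0.430). MYOZ1, a Z disc protein that binds calcineurin, had -0.16 (adjusted p = 0.686).

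None of the 6 thick filament genes was called by its highest-mean feature, and none of the 7 thin filament genes was. The slow myosin heavy chain MYH7 had a difference of 0.22 (adjusted p = 0.101) and the fast heavy chain MYH1 -0.17 (adjusted p = 0.420). MYL1 had 0.12 (adjusted p = 0.316 in limma). TPM2, the beta tropomyosin, had -0.25 (adjusted p = 0.121), with 8 of 9 pigs lower at 7 d. TNNI2, the inhibitory subunit of fast troponin, had 0.11 (adjusted p = 0.234). Of 6 slow or cardiac genes, again none was called. TNNT1, the slow troponin T, had -0.25 (adjusted p = 0.277) and NPPA 0.18 (adjusted p = 0.259 in limma). The 3 genes of calcium handling also gave no call. ATP2A2 had -0.11 (adjusted p = 0.599 in limma) and SLN 0.026 (adjusted p = 0.892 in limma). The calcium release channel RYR1 had -0.0054 (adjusted p = 0.986).

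Of 5 cytokine and immune genes measured, JAK1 alone was called, and it was higher at 7 d. JAK1 had its lowest value of 2 d at -0.14, its median at -0.0097 and its highest at 0.17. At 7 d the lowest was -0.063, the median 0.59 and the highest 1.20. All but 2 lesions of 7 d exceeded every lesion of 2 d, and pig H fell. JAK1 differed by 0.55 ± 0.111 log units (SE; adjusted p = 0.000337 in limma), and by 0.40 in the deposited values (adjusted p = 0.0319). B2M, the light chain of MHC class I, had a difference of 0.72 with adjusted p = 0.105 and was higher in 7 of 9 pigs. Its values were scattered at 2 d, from -0.13 to 1.73. NFKBIA, the inhibitor of NF-kappa-B, had 0.034 (adjusted p = 0.864). PTGS2, the inducible cyclooxygenase of prostaglandin synthesis, belonged to none of the lists. It was dim at both ages, from -0.45 to -0.039 at 2 d (median -0.25) and from -0.33 to 0.16 at 7 d (median -0.032). PTGS2 rose by 0.22 ± 0.0758 (SE; adjusted p = 0.0356 in limma) in 9 of 9 pigs, although the groups overlapped. Without pig C, D, E, K or L in turn PTGS2 was no longer called, with an adjusted p of up to 0.136. The call was also lost in 7 other alternatives (adjusted p from 0.05 to 0.147).

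The 3 measured genes of matrix and cell surface split, with 1 higher, 1 lower and 1 not called. ANPEP ran from 0.011 to 0.93 at 2 d with a median of 0.25, and from 0.25 to 1.25 at 7 d with a median of 0.74. Every lesion of 7 d lay above the 2 d median, the lowest of them barely (0.2542 against 0.2534). The groups still overlapped, partly through pig D, whose 2 d lesion was the highest of that age. ANPEP differed by 0.45 ± 0.12 (SE; adjusted p = 0.00624 in limma) and rose in 8 of 9 pigs. In the values as deposited its difference was 0.27 (adjusted p = 0.251), and its other feature had -0.01. POMGNT1 ran from 1.01 to 1.58 at 2 d (median 1.28) and from 0.66 to 1.06 at 7 d (median 0.98). It fell in 9 of 9 pigs, and 1 lesion of 2 d reached into the range of 7 d. The difference of POMGNT1 was -0.41 ± 0.103 (SE; adjusted p = 0.00409 in limma), and no alternative run ended its call. The difference of POMGNT1 was -0.66 in the deposited values (adjusted p = 0.039). FN1, fibronectin, had -0.17 (adjusted p = 0.268).

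**Figure D2:**
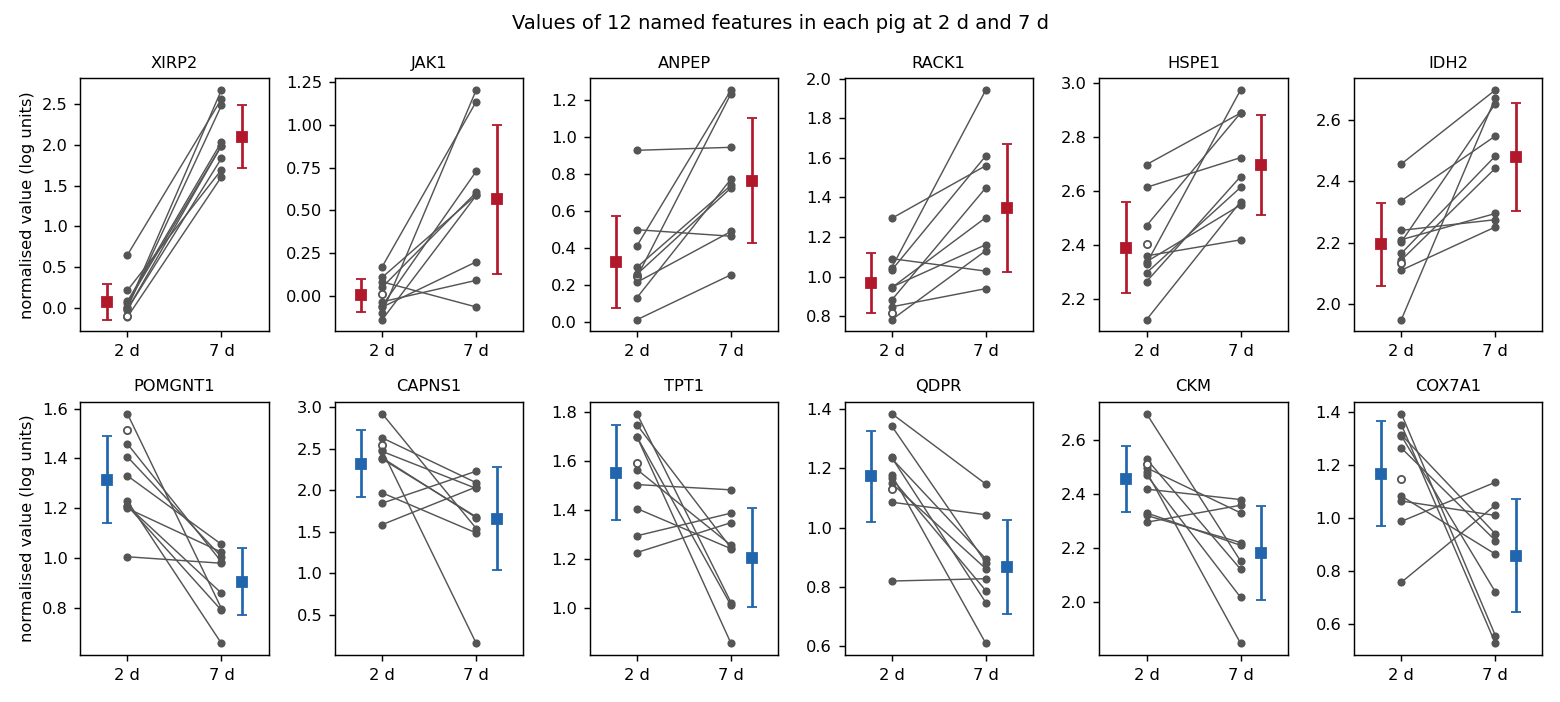
Normalised values in log units of 12 named features at 2 d and 7 d, where a line joins both lesions of 1 pig, the open circle is the 2 d lesion of pig J (no 7 d lesion on file) and squares with bars are the group mean ± SD (n = 10 and 9). XIRP2 separates fully (highest 2 d value 0.65, lowest 7 d value 1.61), while the other 11 overlap between ages.

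Energy metabolism gave calls in both directions. CKM, whose enzyme buffers ATP in the fibre, ran from 2.30 to 2.70 at 2 d (median 2.48) and from 1.85 to 2.38 at 7 d (median 2.21). All but 1 of the 9 pigs were lower at 7 d. CKM differed by -0.26 ± 0.0765 (SE; adjusted p = 0.0139 in limma). The call was lost without pig E or K (adjusted p up to 0.0707), on the arrays of 2 d and 7 d alone (adjusted p = 0.0799), with the array SD as a covariate (adjusted p = 0.0511) and with a local trend along the feature list subtracted (-0.17, adjusted p = 0.129). The deposited values gave CKM a called difference of -0.82 (adjusted p = 0.039). FABP3, the fatty acid carrier of muscle, had -0.10 (adjusted p = 0.801).

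Of 8 genes of glycolysis and glycogen, 1 was higher and 1 lower, and their median difference was -0.17. UGP2, which makes the UDP-glucose for glycogen, ran from 0.11 to 0.94 at 2 d (median 0.63) and from 0.51 to 1.31 at 7 d (median 1.002). The groups overlapped widely, and 6 of 9 pigs rose. UGP2 differed by 0.40 ± 0.133 (SE; adjusted p = 0.0314 in limma), and the call was lost without pig D, E, F or K (adjusted p up to 0.128). In the deposited values the difference of UGP2 was 0.20 (adjusted p = 0.447). UGP2 was also not called with the 6 h array of pig F kept, on the arrays of 2 d and 7 d alone, after median centring or with the local trend subtracted (adjusted p from 0.0642 to 0.412). PFKM, the muscle phosphofructokinase that sets the pace of glycolysis, was lower at its brighter feature by 0.37 log units (SE 0.123; adjusted p = 0.03 in limma). That feature, PFKM (5130), ran from 1.20 to 2.23 at 2 d and from 0.95 to 1.73 at 7 d, with medians of 1.73 and 1.32. Its call was lost without pig E, F, K or L (adjusted p up to 0.111). PFKM (5130) was also not called with the 6 h array of pig F kept, on the arrays of 2 d and 7 d alone, without the pig as a fixed block or with the local trend subtracted (adjusted p from 0.0525 to 0.111). It was called at -0.79 in the deposited values (adjusted p = 0.0262). The dimmer feature, PFKM (7526), rose by 0.37 and kept its call in every alternative run. TPI1, the triose phosphate isomerase, had -0.21 (adjusted p = 0.0853).

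The 6 nuclear genes of mitochondrial energy metabolism also gave 1 rise and 1 fall. IDH2, the mitochondrial isocitrate dehydrogenase, was bright, from 1.95 to 2.46 at 2 d (median 2.18) and from 2.25 to 2.70 at 7 d (median 2.48). IDH2 rose in 9 of 9 pigs by 0.29 ± 0.0846 (SE; adjusted p = 0.0152 in limma), with overlapping groups, and without pig I the adjusted p was 0.056. COX7A1, the muscle form of a subunit of cytochrome oxidase, ran from 0.76 to 1.39 at 2 d (median 1.21) and from 0.53 to 1.13 at 7 d (median 0.91). It was lower in 7 of 9 pigs. COX7A1 differed by -0.32 ± 0.104 (SE; adjusted p = 0.0293 in limma), and the call was lost without pig C, D, E, F or K (adjusted p up to 0.142). COX7A1 was also not called on the arrays of 2 d and 7 d alone (adjusted p = 0.131), with the local trend subtracted (adjusted p = 0.112), in the deposited values (-0.51, adjusted p = 0.0735) or after median centring (adjusted p = 0.0565). NDUFA4, another respiratory chain subunit, had -0.14 (adjusted p = 0.430).

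Protein folding, synthesis and breakdown had 3, 14 and 1 measured genes. Of all 121 genes 13.2% were called, and lists this short cannot tell a group apart from that share. HSPE1, the small chaperonin of mitochondria, ran from 2.12 to 2.70 at 2 d (median 2.35) and from 2.42 to 2.98 at 7 d (median 2.65). HSPE1 rose in 9 of 9 pigs by 0.30 ± 0.0886 (SE; adjusted p = 0.0138 in limma), within overlapping ranges. Its direction, and that of IDH2, turned with the scaling. In the deposited values HSPE1 was at -0.29 and IDH2 at -0.27. With the 6 h array of pig F kept in the fit, HSPE1 had an adjusted p of 0.26. TPT1, a protein that binds tubulin and counts here among the chaperones and the translation genes, ran from 1.23 to 1.80 at 2 d (median 1.58) and from 0.85 to 1.48 at 7 d (median 1.24). TPT1 fell by 0.36 log units (SE 0.0906; adjusted p = 0.00409 in limma) and was lower in 7 of 9 pigs. TPT1 was not called on the arrays of 2 d and 7 d alone (adjusted p = 0.0832) or in the deposited values (-0.66, adjusted p = 0.057). HSP90AA1, a cytosolic chaperone, had -0.19 (adjusted p = 0.208).

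Of 14 translation genes, RACK1 was higher and TPT1 lower, with a median of -0.09. RACK1, a scaffold on the small ribosomal subunit, ran from 0.78 to 1.29 at 2 d (median 0.95) and from 0.94 to 1.94 at 7 d (median 1.30). It rose in 8 of 9 pigs, and several lesions of 7 d stayed within the 2 d range. RACK1 differed by 0.38 ± 0.104 (SE; adjusted p = 0.00754 in limma). In the deposited values the difference of RACK1 was 0.07 (adjusted p = 0.863). RPL10A, a protein of the large ribosomal subunit, had -0.25 (adjusted p = 0.107).

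CAPNS1, the regulatory subunit of the calpain proteases, was the only gene of proteolysis measured. It ran from 1.59 to 2.93 at 2 d (median 2.43) and from 0.16 to 2.23 at 7 d (median 1.68). The lowest value belonged to pig G and lay far under the other lesions of 7 d, which began at 1.49. CAPNS1 differed by -0.65 ± 0.182 (SE; adjusted p = 0.0104 in limma) and was lower in 7 of 9 pigs. Without pig G the difference was -0.44. Fitted on the arrays of 2 d and 7 d alone, CAPNS1 had an adjusted p of 0.103, and with the array SD as a covariate it had -0.48 (adjusted p = 0.0701). Its call held in the deposited values, at -1.08 (adjusted p = 0.0416).

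QDPR, which recycles the cofactor tetrahydrobiopterin, and SLC35A4, a member of the nucleotide sugar transporter family, fell and belonged to none of the lists. QDPR ran from 0.82 to 1.38 at 2 d (median 1.17) and from 0.61 to 1.15 at 7 d (median 0.86). It fell in 8 of 9 pigs, by 0.31 log units (SE 0.0771; adjusted p = 0.00409 in limma), and its 2 d lesion of pig D was far below the rest. QDPR was not called in the deposited values (-0.52, adjusted p = 0.0623). SLC35A4 ran from 1.57 to 2.06 at 2 d (median 1.87) and from 1.21 to 1.77 at 7 d (median 1.57), lower in 7 of 9 pigs. SLC35A4 differed by -0.32 ± 0.111 (SE; adjusted p = 0.0393 in limma), a call lost when pig D, E, G, H, K or L was left out, with an adjusted p of 0.141 at most. SLC35A4 was also not called in 6 other alternatives (adjusted p from 0.0591 to 0.232), where its difference ran from -0.19 with the array SD as a covariate to -0.72 in the deposited values.

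The remaining lists held no call. MAPK12, a stress kinase abundant in muscle, had -0.21 (adjusted p = 0.0617) and PRKACA, a catalytic subunit of protein kinase A, -0.045 (adjusted p = 0.690). The non-muscle cytoskeleton had 4 measured genes, among them ACTB, the beta actin, at 0.31 (adjusted p = 0.0853), CFL1, an actin-severing protein, at -0.18 (adjusted p = 0.181), and TUBA1B, an alpha tubulin, at -0.15 (adjusted p = 0.100). The endothelial marker PECAM1 was dim at both ages, with medians of -0.068 and -0.22 and a difference of 0.0075 (adjusted p = 0.972).

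Features that share a symbol often disagreed. Among 31 genes with more than 1 feature, 25 had features with differences of both signs. Over the arrays of both ages the 347 pairs of features with 1 symbol had a median correlation of 0.0383, against -0.00967 over all pairs. These pairs share arrays and pigs, and the correlations are a description. Whether each symbol belongs to its feature was not tested. Each gene value above is therefore that of the feature listed under the symbol.

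MYLPF, the regulatory light chain of fast myosin, has 18 features, of which 2 were higher, 1 was lower and 15 were not called. MYLPF (6082) ran from 0.39 to 0.92 at 2 d (median 0.81) and from 1.06 to 1.80 at 7 d (median 1.52). It did not overlap between ages and rose by 0.72 ± 0.112 (SE; adjusted p = 7.48e-06 in limma). MYLPF (7944) ran from 0.31 to 1.76 at 2 d (median 0.95) and from 1.63 to 2.13 at 7 d (median 2.03), a difference of 0.94 ± 0.157 (SE; adjusted p = 2.78e-05 in limma). In the deposited values neither was called, with 0.33 (adjusted p = 0.294) and 0.51 (adjusted p = 0.18). MYLPF (5772) went the other way, from a median of 0.47 at 2 d (0.065 to 0.89) to -0.087 at 7 d (-0.40 to 0.40). It fell by 0.51 log units (SE 0.132; adjusted p = 0.00492 in limma), while the brightest feature, MYLPF (6058), had -0.24 (adjusted p = 0.562).

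TNNC2, the calcium sensor of fast troponin, has 12 features, and 1 was called. TNNC2 (5336) was even at 2 d, from 1.91 to 2.14 with a median of 1.98, and lower and more spread at 7 d, from 1.04 to 1.94 with a median of 1.51. It fell in 9 of 9 pigs, by 0.46 log units (SE 0.086; adjusted p = 0.000127 in limma), and in the deposited values by 0.86 (adjusted p = 0.0271). The other 11 had differences from -0.51 to 0.07. CKM had 10 features, of which 1 was called, lower at 7 d, and 9 were not called. Differences were below 0 in 7 of the 10, with a range from -0.26 to 0.23. PFKM had a feature of each direction. PFKM (7526), dim at both ages, had a median of -0.38 at 2 d (-0.50 to 0.034) and of 0.028 at 7 d (-0.37 to 0.44), and it rose by 0.37 ± 0.0869 (SE; adjusted p = 0.00198 in limma). RACK1 had another feature at -0.30 (adjusted p = 0.076) and TPT1 another at -0.18.

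**Figure D3:**
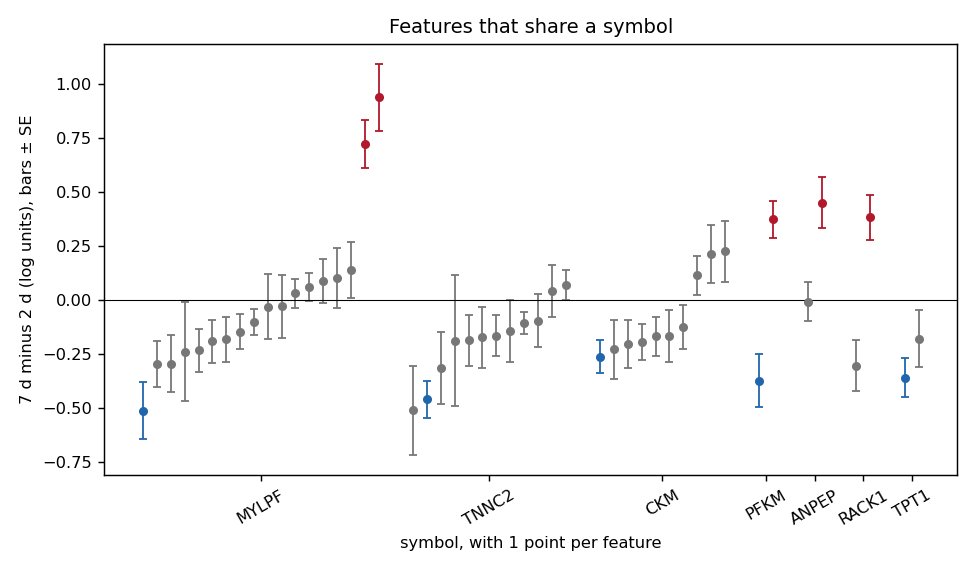
Difference of 7 d minus 2 d in log units for each feature of 7 symbols with a called feature, 1 point per feature with bars of ± 1 SE, red where called higher, blue where called lower and grey where not called. MYLPF spans -0.51 to 0.94 over its 18 features and PFKM has both -0.37 and 0.37, while TNNC2 reaches 0.07 at most.

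Neighbours on the feature list also moved together. The median correlation over 1175 pairs of neighbouring features was 0.269 over the arrays of both ages, and of 44 neighbouring pairs with both features called 34 went in 1 direction. HSPE1 and IDH2 are neighbours, and so are MYLPF (5772) and TPT1. With a local trend along the list subtracted, 285 features were called, 180 higher and 105 lower. HSPE1 then had 0.33, IDH2 0.32, MYLPF (5772) -0.43 and TPT1 -0.28, and each was still called. A window this wide leaves in place what adjacent features alone share, so these values cannot test the neighbouring pairs.

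Of the 3 largest rises, XIRP2 came after features 5139 and 7368, which have no symbol. Feature 5139 rose most, from a median of 1.10 at 2 d (0.68 to 1.42) to 3.47 at 7 d (2.67 to 3.93). Its difference of 2.36 ± 0.116 (SE; adjusted p = 5.56e-19 in limma) held in 9 of 9 pigs, and the groups lay far apart. In the deposited values feature 5139 had 1.92 (adjusted p = 5.47e-08 in limma). Feature 7368 went from a median of 0.16 (-0.27 to 0.51) to 2.12 (1.59 to 3.17), by 2.10 ± 0.219 (SE; adjusted p = 1.25e-09 in limma). Among features without a symbol and with 1 sign in at least 8 pigs, the next 4 rises were those of features 7142, 7914, 7896 and 4842, with 1.61, 1.61, 1.57 and 1.47. These 6 also had no overlap and rose in every pair. Feature 4842 had 0.98 in the deposited values.

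Among features without a symbol and with 1 sign in at least 8 pigs, feature 6695 fell most. Feature 6695 went from a median of 0.82 at 2 d (0.17 to 1.12) to -0.093 at 7 d (-0.55 to 0.16). It fell in 9 of 9 pigs without overlap, by 0.91 log units (SE 0.139; adjusted p = 5.51e-06 in limma). Feature 4828 went from 0.59 (0.43 to 0.74) to -0.14 (-0.42 to 0.33), again without overlap, by -0.68 ± 0.0894 (SE; adjusted p = 3.53e-07 in limma). Features 7150, 6363, 5654 and 5279 had differences of -0.74, -0.70, -0.66 and -0.64, and feature 5654 had -0.996 in the deposited values. The lowest difference of all, -0.95 in feature 4903, had 1 sign in 6 pigs and is named after its values were seen. No alternative run ended the call of the 12 features named by the rule, of XIRP2, of JAK1, of POMGNT1 or of TNNC2 (5336). The same held for MYLPF (5772), which fell, and for PFKM (7526), which rose.

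Both ages were then read beside the control, the 6 h and the 21 d lesions. Against control 14 features were called at 2 d (0.734%) and 484 at 7 d (25.4%), beside 225 at 6 h (11.8%) and 281 at 21 d (14.7%). These comparisons share the control arrays, and those at 2 d and 7 d share arrays with the comparison above. In the order 6 h, 2 d, 7 d, 21 d, XIRP2 differed from control by 1.21, 0.079, 2.08 and 2.22. JAK1 gave 0.68, 0.18, 0.74 and 0.54, and feature 5139 gave 1.34, 0.092, 2.46 and 2.77. For these the 2 d lesion lay nearest to control. ANPEP followed another order, with 0.17, 0.19, 0.64 and 1.12. Among the falls, POMGNT1 had -0.19, -0.13, -0.54 and -0.56, QDPR -0.34, -0.075, -0.38 and -0.34, and CAPNS1 -0.32, -0.092, -0.74 and -0.30.

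Lesions of 6 h and 21 d entered neither side of the comparison of 7 d with 2 d. Of the 180 features higher at 7 d, 171 (95%) were above control at 6 h and 176 (97.8%) at 21 d, where 45.8% and 49.8% of all features were. Of the 134 lower at 7 d, 124 (92.5%) were below control at 6 h and 126 (94.0%) at 21 d, against 54.2% and 50.2% of all features. Quantile normalisation and the pig terms joined all arrays in that fit. Separate fits took 7 d against 2 d on its own arrays, and 6 h and 21 d against control on theirs. They had no pig terms in common but used the same jointly normalised values. The shares were then 95.5% and 97.7% of 133 rises and 90.8% and 92.1% of 76 falls. The median of the rises against control was 0.32, -0.02, 0.54 and 0.32 at those 4 ages in turn. For the falls it was -0.26, -0.06, -0.46 and -0.29.

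**Figure D4:**
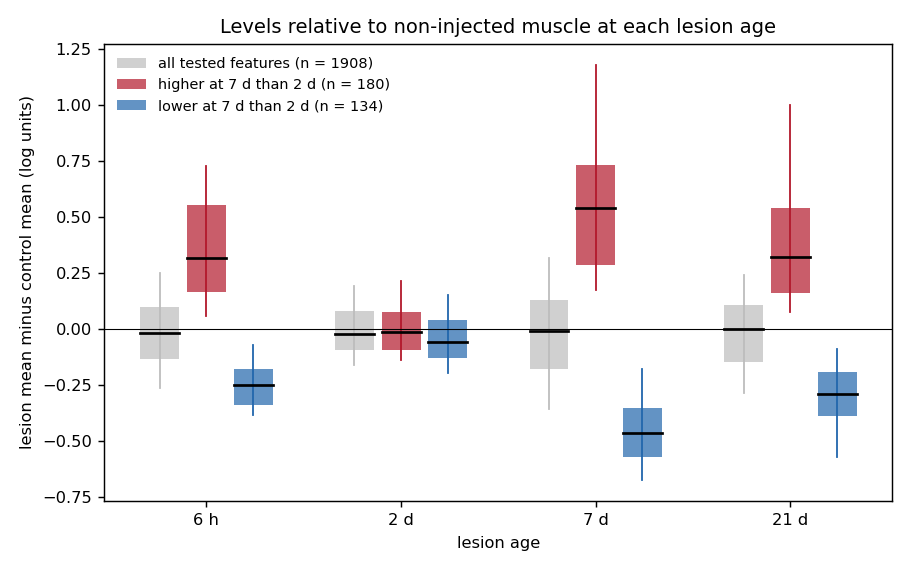
Lesion mean minus control mean in log units at 6 h, 2 d, 7 d and 21 d for all 1908 tested features (grey), the 180 higher (red) and the 134 lower (blue) at 7 d than at 2 d; black lines are medians, boxes the range between quartiles and thin lines the range from the tenth to the ninetieth percentile. At 2 d the medians of both sets are near 0 (-0.02 and -0.06), and at 6 h and 21 d they lie apart on the sides they have at 7 d.

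Some features went the other way, being high at 2 d. Feature 4828 stood 0.78 above control at 2 d (adjusted p = 5.33e-08 in limma) and 0.10 at 7 d. Feature 7150 was 1.06 above control at 2 d (adjusted p = 4.1e-07 in limma), 0.52 at 6 h and 0.32 at 7 d. Feature 6695 was 0.76 above at 2 d (adjusted p = 0.000459 in limma) and -0.15 at 7 d. The 2 d mean was the highest of the 5 group means in 38 of the 134 falls, against 344 of all 1908 features. The 7 d mean was the lowest of the 5 in 114 of the 134, against 502 of all, and the choice of the falls favours both.

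The pigs differed in how far they followed the calls. Features were called again with each pig left out, and the sign in that pig was then read. The share with the called sign ran from 72.2% in pig I to 95.9% in pig E. For falls alone it was 56.7% in pig C and 92.9% in pig E, and for rises 69.5% in pig G and 99.3% in pig K.

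The arrays of 7 d also held a narrower range of values than those of 2 d before normalisation. The SD over features within an array was 0.805 ± 0.0985 log units at 2 d (SD, n = 10) and 0.607 ± 0.158 at 7 d (SD, n = 9). It was lower at 7 d in 7 of 9 pigs, by 0.184 on average (exact two-sided sign-flip permutation p = 0.0234, where 0.00391 is the smallest p that 9 pairs allow). By the interquartile range the difference was -0.226 with an exact permutation p of 0.109. The other groups differed in array SD too. Control arrays had 0.974 to 1.264, but for pigs C (0.528) and L (0.594). Lesions of 6 h had 0.587 to 0.903 without pig F, and those of 21 d 0.424 to 0.736, but for pig C (1.096). With the array SD as a covariate, 298 features were called, 198 higher and 100 lower, and 237 of them were among the 314. Of those rises 97.0% were above control at 6 h and 98.5% at 21 d, against 40.1% and 42.1% of all features. Of the falls 88% and 91% were below control, against 59.9% and 57.9% of all. Whether array spread bears on the order of the ages was not tested.

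**Figure D5:**
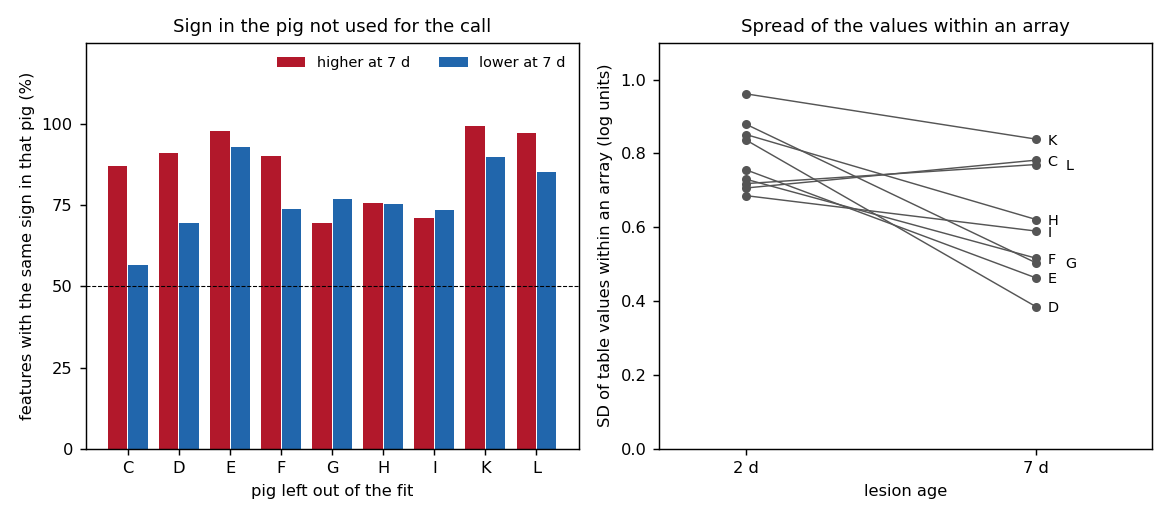
Left, for each pig left out of the fit, the percentage of the features then called higher (red) or lower (blue) at 7 d that had the same sign in that pig, with a dashed line at an even split; right, the SD of the deposited values over features within each array in log units at 2 d and 7 d, with a line for each pig. Pig C shows 56.7% for falls and pig K 99.3% for rises, and the SD is lower at 7 d in all pigs but C and L.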

How the data were processed

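Per the labels, cDNA carrying a 33P label was hybridised to 1 nylon array per muscle sample, and spots were quantified from imaging plates on a fixed grid. The values the authors deposited are log values, neither counts nor intensities, and their base, centring and filter are not stated in the sources used here. They ran from -1.33 to 5.00. Of 4608 features, 2695 had no value and 5 had values in few columns, and both sets were left out. Both columns of a sample were averaged, and a 6 h column of pig J that copied the control of pig I was left out.

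The 47 arrays were quantile normalised and fitted with limma 3.58.1 in R 4.3.3 (lmFit and eBayes), with terms for 5 groups and for the pig, with Benjamini-Hochberg adjustment over 1908 features. Each pig carried all lesion ages, so the pairing comes from the design: deviations of both ages had a median correlation of -0.0933 within a pig and 0.0305 between pigs. The other 3 groups share the estimate of the spread. How many arrays there are limits the precision. Exact permutation tests ran over every sign flip with numpy 2.4.6, and figures used matplotlib 3.10.9. Gene symbols came from GEO's platform annotation, with 204 of 206 identifiers matched in the current gene table.

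Named were all called genes and features with a symbol, up to 3 members of each list with the smallest p, and the 6 largest rises and 6 largest falls without a symbol that had 1 sign in at least 8 of 9 pigs. Of 25 gene lists, 17 had a measured gene. The members and lists were chosen with earlier results of these data known. Alternatives covered the arrays in the fit, the pig block, the scaling, array spread and weights, a local trend along the feature list, a filter on dim features and leaving out each pig.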

Additional observations from a re-analysis of the deposited data

Results flagged for a closer look

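Among 120 groups of values checked by Dixon's rule, 12 had a sample whose gap to the nearest other was above the 95% critical value, and chance gives about 1 in 20. At 2 d, pig D stood apart in ANPEP (0.926, the others reaching 0.50), in QDPR (0.820, the others from 1.09) and in MYH7 (1.20, the others reaching 0.95). Pig E stood apart at 2 d in XIRP2 (0.647, the others reaching 0.21), pig I in feature 7896 (0.573, the others reaching 0.15) and pig K in TNNT1 (0.216, the others from 0.81). At 7 d, pig G was low in CAPNS1 (0.156), pig F in TNNT1 (-0.123, the others from 0.47) and pig C in feature 7896 (0.828, the others from 1.53). Pig E was high at 7 d in TPM2 (1.38, the others reaching 0.66), pig I in FABP3 (1.01, the others reaching 0.32) and pig D in PECAM1 (0.596, the others reaching 0.09). The cause of these values was not tested.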

How the results depend on the processing

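The count of 314 features was 209 with the arrays of 2 d and 7 d alone (197 of them among the 314), 127 in the deposited values (115 shared) and 177 after median centring (148 shared). It stayed within 1.5 times under the other alternatives and ran from 217 (without pig E) to 316 (without pig I) with each pig left out. The 16 genes called became 9 with those arrays alone, 8 in the deposited values and 32 with array weights, and 11 to 17 with each pig left out. HSPE1 and IDH2 reversed, to -0.29 and -0.27 in the deposited values and after median centring. The lower array SD at 7 d was -0.226 by the interquartile range (exact permutation p = 0.109) and from -0.216 to -0.151 with each pig left out. With no replicate block for the pig, 316 features were called (300 shared), and no named feature that was called changed direction. PFKM (5130) and PTGS2 lost their calls there (adjusted p = 0.0525 and 0.0564 in limma). Of 33 named features that were called, 31 kept their call without the block, 25 with 2 groups, 21 in the deposited values, 23 after median centring and 27 with the local trend subtracted. The cause of these changes was not tested. Fewer arrays entered the fits of 2 groups. The base of the logarithm limits how differences translate to folds.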
